A study of Mus musculus with 10 samples.

Results

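AP-1 is a family of transcription factors that bind DNA as pairs of basic leucine zipper (bZIP) proteins. The transcripts described here are those of 10 genes, selected by symbol from the 56750 features of the count table: Fos, Fosb, Fosl1, Fosl2, Jun, Junb, Jund, Atf3, Batf and Maff. Counts were compared between sarcomas of 2 mouse models. The dFLEx tumors (170019, 170024 and 170025, genotype dFLEx CDS +/-) arose in mice with 1 copy of an HA-tagged CIC::DUX4 construct at Rosa26, driven by the CAG promoter, which is put in frame by Cre and FLPE. Plasmids encoding both recombinases were electroporated into the calf muscle of young adult animals. The KP tumors (3800 and 3802) are sarcomas of a model whose genotype includes p53fl/fl, and do not carry the fusion. The labels give no age, sex or treatment for either group. RNA of each tumor was split into duplicate libraries. Of the 10 labelled libraries 9 were used, with a single library for 3802. Duplicates of a tumor were summed, and the tumor was the replicate (n = 3 dFLEx and n = 2 KP).

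Fos and Jun proteins form the classical AP-1 dimer: Fos proteins cannot pair with themselves, whereas Jun proteins can. Fos, Fosb, Jun and Atf3 are immediate-early or stress-induced genes whose short-lived transcripts rise within minutes of growth factor signalling through ERK and related kinases, or of cell stress and tissue handling. Fosl1 and Fosl2 encode Fos-related proteins without the transactivation domain of Fos, Junb and Jund encode Jun partners, Batf encodes a bZIP protein best known in lymphocytes, and Maff encodes a small Maf protein that binds DNA without an activation domain. CIC is a repressor of ERK-responsive genes, and fusion to DUX4 turns it into an activator. Fos is on the study's list of CIC::DUX4 target genes.

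Promoter sequences are shown for Fos and Maff because the levels of these 2 members did not overlap and were higher in dFLEx, which was known when they were selected. Each is the 250 bases before a RefSeq transcript start (GRCm38.p6, an older build than that of the counts), written 5′ to 3′ in the direction of transcription. The Fos window is chr12:85473640-85473889 on the plus strand and the Maff window is chr15:79347270-79347519 on the plus strand, before the second of 3 annotated Maff starts. Capitals mark a CIC octamer in Fos and a cyclic AMP response element (CRE, TGACGTCA) in Maff.
Fos: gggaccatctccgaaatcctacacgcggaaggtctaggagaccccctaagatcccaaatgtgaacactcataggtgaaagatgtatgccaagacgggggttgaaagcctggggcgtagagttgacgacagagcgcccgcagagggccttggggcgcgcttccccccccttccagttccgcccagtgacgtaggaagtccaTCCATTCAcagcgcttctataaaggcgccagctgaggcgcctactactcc
Maff: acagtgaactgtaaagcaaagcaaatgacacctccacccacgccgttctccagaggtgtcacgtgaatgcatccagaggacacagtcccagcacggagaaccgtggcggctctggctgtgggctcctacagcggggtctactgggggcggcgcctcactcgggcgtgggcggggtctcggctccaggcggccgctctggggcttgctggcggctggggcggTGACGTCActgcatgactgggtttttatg
The CIC octamer was searched on both strands as TGAATGAA, TGAATGGA, TCAATGAA or TCAATGGA. The Fos window held 1 match, on the reverse strand and 50 bases before the start, and 3.19% of 32851 windows of all genes held a match. The Maff window held the CRE 29 bases before the start, and 1.55% of all windows held that motif. The windows before the other annotated Maff starts held no CRE. RefSeq windows were found for 9 of the 10 members (11 windows), and Fosl1 was the member without a window. Among the 11, the octamer in Fos and the CRE in Maff were the only matches to the motifs searched. None held the AP-1 site TGANTCA or a CArG box, which 6.75% and 1.47% of all windows held. Variants of these sites were not counted. The Jun window, for example, holds tgacatca, a near match to the CRE. Bases outside these 250-base windows were not searched, so sites further upstream would be missed. A match is a description of these letters only, and no binding was measured.

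None of the 10 members differed between dFLEx and KP tumors in edgeR's quasi-likelihood test at an adjusted p under 0.05, where 45 of 24743 tested genes passed (0.182%). DESeq2 on the same tumor sums also called none of them, beside 3.15% of its 44379 tested genes. At an unadjusted p under 0.05 the count was 1 member (Maff), against 10.6% of all tested genes. The log2 fold change of dFLEx over KP was positive for 3 members and negative for 7, with a median of -0.36, beside -0.18 over all tested genes. Every dFLEx tumor lay above every KP tumor for 2 members (Fos and Maff; 13.7% of all tested genes), and below for 1 (Batf; 11.7%). The groups overlapped for the other 7. All 10 members passed the filter on low counts. The transgene feature, as a check of the labels, was at 89.3, 192 and 409 CPM (the count relative to all counts of the tumor's libraries) in 170019, 170024 and 170025, at 0 in 3800 and at 0.293 in 3802. Library totals ran from 20503474 to 46302223 counts, and 3802 had the lowest total but the most features with a count (36904).

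**Figure D1:**
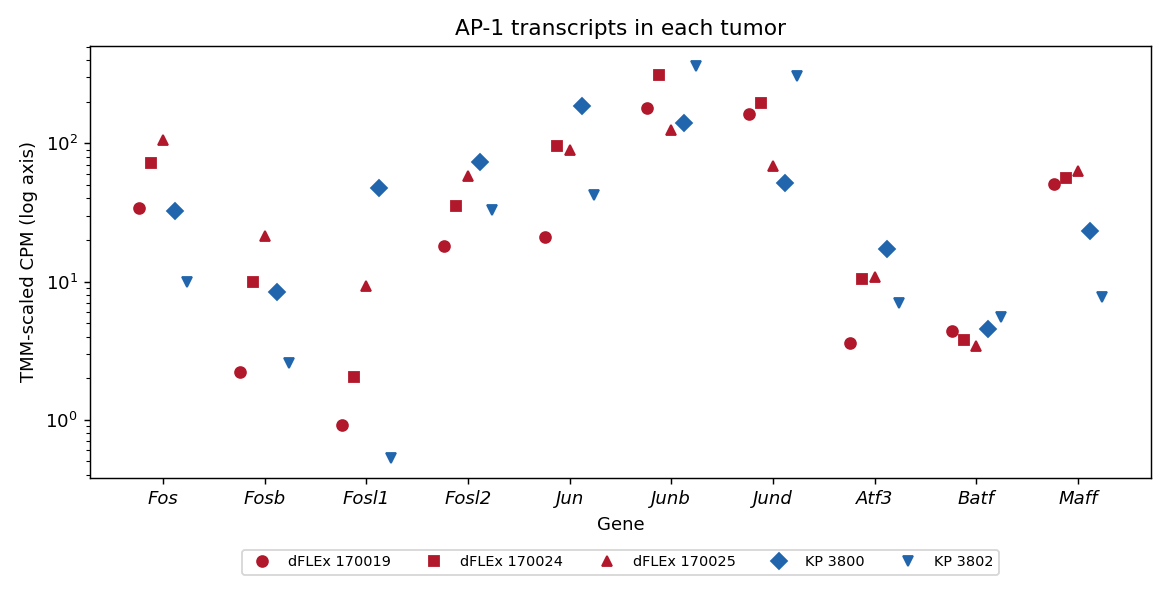
Level of each AP-1 transcript in each tumor, as TMM-scaled CPM on a log axis; red symbols are the 3 dFLEx tumors and blue symbols the 2 KP tumors. For Fos and Maff all red symbols lie above both blue ones, whereas Fosl1 spans 0.528 to 47.2 CPM within the KP group.

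Fos, the founding member of the family, was measured at 34.3, 72.6 and 106 CPM in dFLEx tumors 170019, 170024 and 170025, and at 32.6 and 10 CPM in KP tumors 3800 and 3802. From here on, CPM are scaled by TMM, a correction for the composition of the libraries. The groups did not overlap, but the lowest dFLEx tumor was only 1.05 times the higher KP tumor. The means were 71.1 ± 36 and 21.3 ± 16 CPM (SD), and the log2 fold change was 1.74 ± 0.79 (SE, edgeR, adjusted p = 0.51). The spread within each group, 3.1-fold in dFLEx and 3.26-fold in KP, was about as wide as the 3.33-fold difference between the means. Among dFLEx tumors Fos had the order of the transgene, 170025 highest and 170019 lowest, as did Fosb, Fosl1, Fosl2, Atf3 and Maff. Jun, Junb, Jund and Batf did not. Library totals of the dFLEx tumors had this order too. The share of all tested genes with this order was not counted, and a relation to the transgene was not tested. With 9 libraries taken as independent samples, Fos passed the threshold (edgeR, adjusted p = 0.0467) but not with the replicate block added (adjusted p = 0.0771), and duplicates of 1 RNA are not separate tumors. Endothelial and fibroblast marker sums, given at the end, had the same order over the 5 tumors as Fos. Pericyte and skeletal myocyte sums, also higher in every dFLEx tumor, had other orders. The part of these cells in the level of Fos was not tested. Fos lies on chromosome 12 (85520664 to 85524047, plus strand, GRCm39), and no exonic base of it is shared with another gene.

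Fosb, a second inducible Fos protein, was at 2.21, 9.87 and 21.4 CPM in the dFLEx tumors and at 8.45 and 2.56 CPM in the KP tumors. The groups overlapped, with 170019 below both KP tumors, and the range within dFLEx was 9.66-fold. Its log2 fold change was 1.02 ± 1.00 (edgeR, adjusted p = 0.874). Fosb therefore had the direction of Fos on average but not in each tumor.

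Fosl1, which encodes FRA-1, a Fos-related protein linked to invasive tumors, had the most uneven level of the 10 members. It was at 0.92, 2.05 and 9.35 CPM in the dFLEx tumors and at 47.2 and 0.528 CPM in KP tumors 3800 and 3802. Tumor 3800 was thus the highest of all 5 tumors and 3802 the lowest, an 89.3-fold range within 1 genotype. The log2 fold change of -2.54 ± 1.5 (edgeR, adjusted p = 0.693) rested on 3800 and was 3.14 without it. Of the annotated exonic bases of Fosl1, 57.2% are shared with the antisense gene Ccdc85b, so reads there were not assigned to either gene. The duplicates of 170019 differed 4.56-fold for Fosl1, the widest ratio of 40 duplicate pairs, whose median was 1.06.

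Fosl2, which encodes the related protein FRA-2, was at 18.2, 35.4 and 58.4 CPM in the dFLEx tumors and at 72.8 and 33 CPM in the KP tumors. The groups overlapped, and 3800 was again the highest tumor. The log2 fold change was -0.50 ± 0.69 (edgeR, adjusted p = 0.91), and 0.35 without 3800.

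Levels of different genes were compared per kilobase of exon (written as FPKM and computed from the CPM and the deposited lengths). Summed FPKM of the 4 Fos genes were 17.3, 37.1 and 59.3 in the dFLEx tumors and 46 and 8.32 in the KP tumors, which overlapped (log2 ratio of means 0.48, exact two-sided permutation test, p = 0.6). The makeup of that sum was also set out. Fos accounted for 84.4%, 83.2% and 76.3% of it in the dFLEx tumors and for 30.2% and 51.1% in KP tumors 3800 and 3802. The means were 81.3% ± 4.39 (SD, n = 3) and 40.6% ± 14.8 (SD, n = 2), 40.7 percentage points apart and without overlap (exact two-sided permutation test, p = 0.2, the smallest that 10 splits of 5 tumors allow). This share was chosen after its values were seen, so its test is no support for a difference. It ranged from 76.1% to 84.8% over the 6 dFLEx libraries and from 28.6% to 51.1% over the 3 KP libraries. The remainder differed between the KP tumors: Fosl1 made up 50.5% in 3800 but 3.12% in 3802, and Fosl2 made up 16.4% and 40.9%. Counting only exonic bases shared with no other gene, Fos made up 81.6%, 80.3% and 69.1% in the dFLEx tumors and 18% and 49% in the KP tumors.

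**Figure D2:**
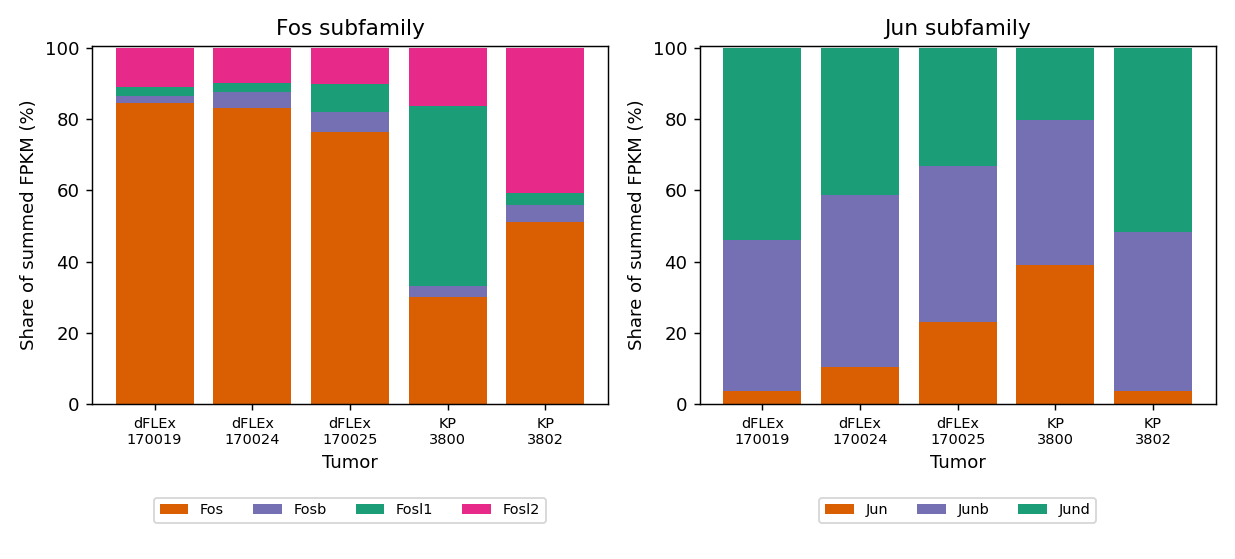
Share of each gene in the summed FPKM of the Fos subfamily (left) and of the Jun subfamily (right), in percent, with 1 bar per tumor. Fos fills 76.3% to 84.4% of the bar in the dFLEx tumors, and 30.2% and 51.1% in the KP tumors; Junb fills 40.5% to 48.1% of the Jun bar in all 5 tumors.

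Jun, the partner of Fos in the classical dimer, was at 21, 95.2 and 90.2 CPM in the dFLEx tumors and at 188 and 42.5 CPM in the KP tumors. The highest tumor was 3800 and the lowest was 170019, and the groups overlapped. For Jun the log2 fold change was -0.74 ± 0.85 (edgeR, adjusted p = 0.892), and 0.86 without 3800. Fos and Jun thus had opposite signs on average, neither past the threshold.

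Junb, which can replace Jun in the dimer and is a weaker activator on many sites, was at 179, 313 and 124 CPM in the dFLEx tumors and at 140 and 366 CPM in the KP tumors. Here 3802 was the highest tumor and 170025 the lowest, and the log2 fold change was -0.31 ± 0.66 (edgeR, adjusted p = 0.948). Jund, the Jun protein that is present in resting cells, was at 163, 195 and 68.1 CPM in the dFLEx tumors and at 51.4 and 308 CPM in the KP tumors. The KP tumors differed 6-fold for Jund and enclosed all dFLEx values, with a log2 fold change of -0.34 ± 0.82 (edgeR, adjusted p = 0.952). Without 3802 the log2 fold changes were 0.56 for Junb and 1.48 for Jund. With trends in GC content and gene length removed they were -1.14 and -1.24 (edgeR, adjusted p = 0.393 and 0.341), and these were the members of highest GC content (62.6% and 67.2%). Of the exonic bases of Jund, 52.6% are shared with the antisense gene Gm11175.

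Summed FPKM of the 3 Jun genes were 182, 283 and 123 in the dFLEx tumors and 151 and 358 in the KP tumors (log2 ratio of means -0.38, exact two-sided permutation test, p = 0.6). The groups overlapped, and the Jun sum was above the Fos sum in every tumor. Junb made up 40.5% to 48.1% of this sum in the 5 tumors. Jun made up 3.63%, 10.6% and 23% in the dFLEx tumors and 39.1% and 3.73% in the KP tumors, so that 3802 resembled 170019 more than it did 3800.

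In dFLEx tumors the mean FPKM were, from high to low, 89.1 ± 42.3 for Junb, 85.2 ± 39.5 for Jund, 30.2 ± 15.3 for Fos, 21.8 ± 2.47 for Maff and 21.6 ± 13 for Jun. The remaining 5 were lower, from 3.86 ± 2.08 for Fosl2 and 3.84 ± 1.88 for Atf3 through 2.74 ± 0.35 for Batf and 2.02 ± 2.25 for Fosl1 to 1.79 ± 1.55 for Fosb. The ranges over tumors of neighbours in this order overlapped, apart from Jun and Fosl2. In KP tumors Junb (110 ± 69.5 FPKM) and Jund (108 ± 109) were again highest, Jun followed (36.1 ± 32.2) and Fosb was lowest (0.882 ± 0.667). Of neighbours in the KP order, only Batf and Fosb had ranges that did not overlap. Jund stood above Junb in 3 of 3 dFLEx tumors on unshared exonic length, against 1 of 3 on the deposited length. On unshared length the dFLEx mean of Fosl1 was 4.72, above Fosl2, Atf3 and Batf.

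Atf3, a stress-induced bZIP protein that pairs with Jun proteins, was at 3.58, 10.4 and 10.8 CPM in the dFLEx tumors and at 17.3 and 6.99 CPM in the KP tumors. The groups overlapped, with 3800 highest and 170019 lowest, as for Jun and Fosl2. Atf3 had a log2 fold change of -0.56 ± 0.73 (edgeR, adjusted p = 0.905), and 0.41 without 3800. The chromosome 1 locus of Atf3 (190902493 to 190950236, minus strand, GRCm39) shares no exonic base with another gene.

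Batf was at 4.38, 3.78 and 3.4 CPM in the dFLEx tumors and at 4.55 and 5.53 CPM in the KP tumors. All dFLEx tumors lay below both KP tumors, by a small margin, and the log2 fold change was -0.39 ± 0.60 (edgeR, adjusted p = 0.923). Markers of T cells summed to 7.41, 7.25 and 5.16 CPM in the dFLEx tumors and to 9.38 and 44.2 CPM in the KP tumors, and their part in the Batf levels was not tested. In bulk tumors, fewer cells of a type and less RNA per cell cannot be told apart.

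Maff was at 50.7, 55.8 and 63.4 CPM in the dFLEx tumors and at 23.2 and 7.76 CPM in the KP tumors. The dFLEx tumors were within 1.25-fold of each other, although the duplicates of 170019 differed 1.51-fold. The lowest dFLEx tumor was 2.19 times the higher KP tumor, and the means were 3.66-fold apart. The log2 fold change was 1.87 ± 0.68, with an unadjusted p of 0.0261 that did not pass adjustment (edgeR, adjusted p = 0.372). With libraries as independent samples it passed (edgeR, adjusted p = 0.00622), as did 17.1% of the genes tested in that setting. Duplicates of 1 RNA are not separate tumors. Maff lies on chromosome 15 (79230821 to 79243276, plus strand, GRCm39), and 16% of its exonic bases are shared with the antisense gene Gm56727.

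**Figure D3:**
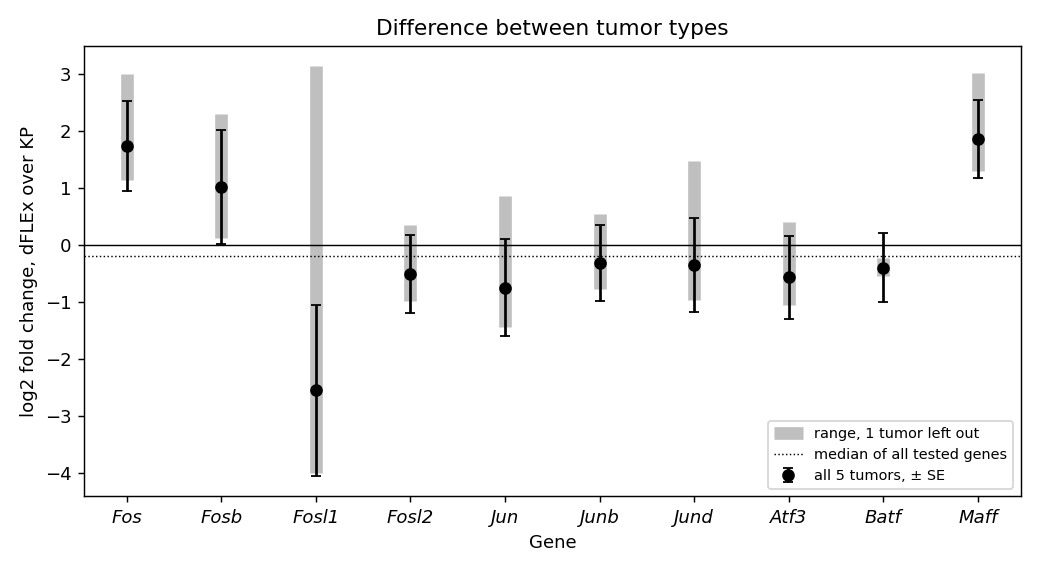
Log2 fold change of dFLEx over KP for the 10 members, with the SE (black) and the range of values when 1 tumor was left out (grey bars). The grey bar crosses 0 for Fosl1, Fosl2, Jun, Junb, Jund and Atf3 and stays above 0 for Fos, Fosb and Maff.

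The members also varied among tumors of 1 genotype. Among dFLEx tumors, 170019 was lowest for 7 members (Fos, Fosb, Fosl1, Fosl2, Jun, Atf3 and Maff) and 170025 was lowest for Junb, Jund and Batf. Between the KP tumors, 3800 was higher for the same 7 members and 3802 was higher for Junb, Jund and Batf. The share of all tested genes with either pattern was not counted. Junb and Jund were the members of highest GC content, and the part of GC content in their shared pattern was not tested. By the root mean square difference of centred log2 CPM over the 5 tumors, the members closest to each other were Fosl2 and Atf3 (0.23), Jun and Atf3 (0.34), Fos and Maff (0.44), and Junb and Jund (0.47).

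**Figure D4:**
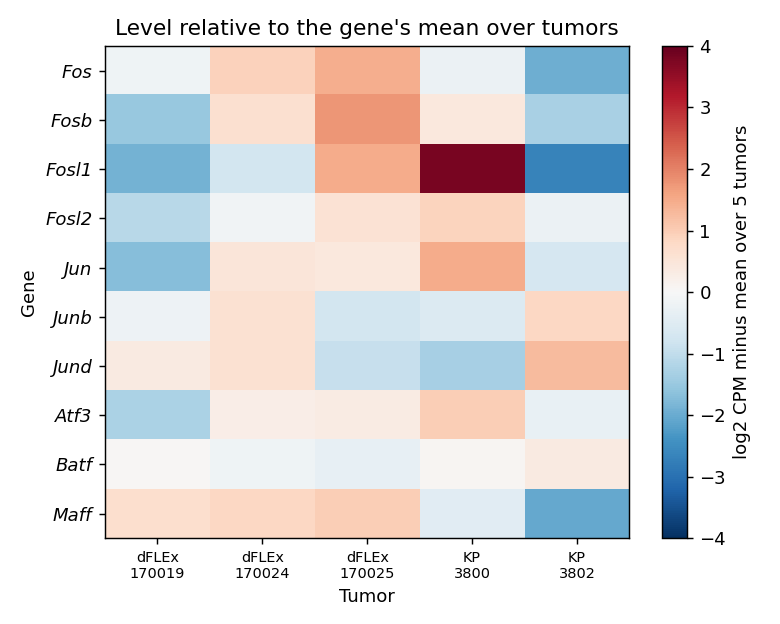
Log2 CPM of each member minus its mean over the 5 tumors, with 1 column per tumor; red is above and blue below the gene's mean. Fosl1, Fosl2, Jun and Atf3 are highest in 3800, whereas Junb, Jund and Batf are highest in 3802.

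A total of 15264 tested genes averaged 1 CPM or more over the tumors. Those nearest to Fos by this distance were Ccng1 (0.12), a cyclin G gene known as a p53 target, Adgrl1 (0.12) and Zfp553 (0.16). Ccng1 was at 62.1, 116 and 218 CPM in the dFLEx tumors and at 59.9 and 19.1 CPM in the KP tumors. Nearest to Jun were Map1b (0.12), a microtubule-associated protein gene, Etl4 (0.21) and Ssx2ip (0.22). Nearest to Atf3 were Mcu (0.09), the pore of the mitochondrial calcium uniporter, Slc25a45 (0.10) and Rgl3 (0.11). With 5 tumors many genes can lie close to any pattern.

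Genes of the same pathway were followed through 6 lists, and in edgeR no gene of any list passed the adjusted threshold. The lists held 19, 15, 17, 20, 6 and 10 genes. Of these genes, DESeq2 on the same tumor sums called 11, 4 higher and 7 lower in dFLEx. Over all genes it called 1396 of 44379 tested (3.15%). The lists were chosen with results of these data known, so their counts are descriptions. A list of genes known as AP-1 targets held 17 genes. Of these, 12 had an unadjusted p under 0.05 in edgeR, against 10.6% of all tested genes. The list went both ways, with 3 genes higher in every dFLEx tumor (Mmp9, Mmp13 and Lif, beside 13.7% of all tested genes) and 8 lower (Mmp10, Plau, Plaur, Ccl2, Cd44, Hbegf, Areg and Spp1, beside 11.7%). The median log2 fold change of the list was -1.37, against -0.18 over all tested genes.

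Mmp13, a collagenase gene, was at 460, 559 and 125 CPM in the dFLEx tumors and at 9.42 and 19.7 CPM in the KP tumors (log2 fold change 4.71 ± 0.92, edgeR, adjusted p = 0.109). Lif, a cytokine gene, was at 28.4, 35.8 and 106 CPM against 7.32 and 3.09 CPM (3.44 ± 0.90, edgeR, adjusted p = 0.196). Both were higher in every dFLEx tumor. At the other end, Areg, an EGF receptor ligand gene, was at 0.373, 0.347 and 0.0252 CPM in the dFLEx tumors and at 12.2 and 6.5 CPM in the KP tumors (-5.25 ± 1.09, edgeR, adjusted p = 0.12). Its value in 170025 was near the floor, below the level of 3 counts in either library (0.0648 and 0.0837 CPM of library totals). The size of this change is therefore imprecise. Mmp10, a stromelysin gene, had a log2 fold change of -3.25 ± 0.99 (edgeR, adjusted p = 0.26). Macrophages also express genes of this list that went different ways. Spp1, Plaur and Ccl2 were lower in every dFLEx tumor, Mmp9 was higher, and Mmp12 and Hmox1 overlapped. Macrophage markers summed to 1097, 1055 and 920 CPM in the dFLEx tumors and to 2241 and 4626 CPM in the KP tumors. Of these markers, 4 of 6 were lower in every dFLEx tumor, beside 11.7% of all tested genes. The part of macrophages in the differences of the target genes was not tested.

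**Figure D5:**
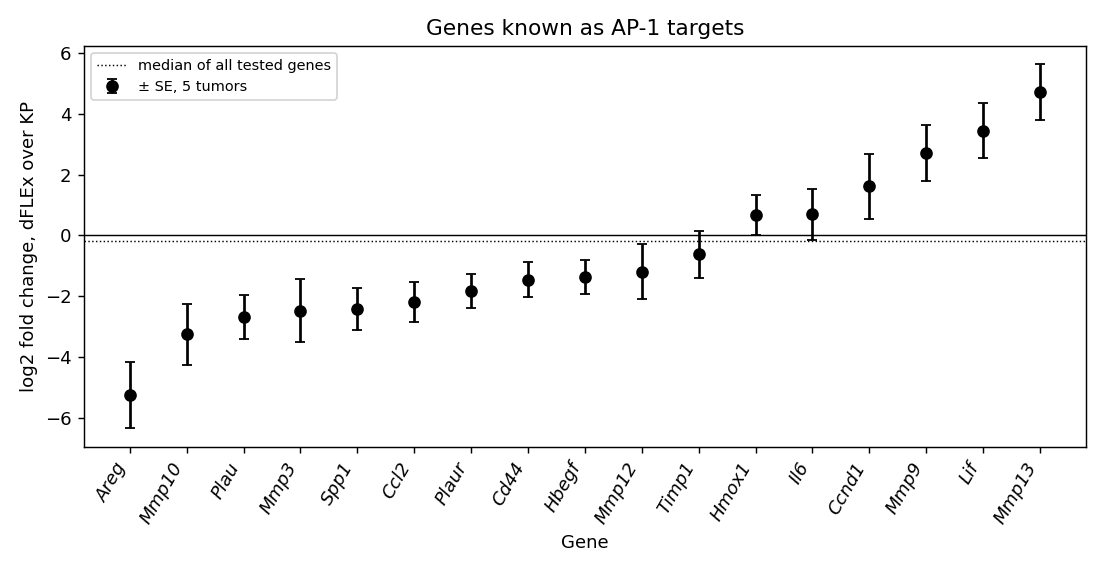
Log2 fold change of dFLEx over KP with its SE for 17 genes known as AP-1 targets, ordered by value; the dotted line is the median of all tested genes. Values run from -5.25 for Areg to 4.71 for Mmp13, with 11 genes below 0 and 6 above.

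Of 20 other immediate-early genes, 5 had an unadjusted p under 0.05, against 10.6% of all tested genes. Their median was 0.26, against -0.18 over all tested genes. Ccn2, a matricellular protein gene, had a log2 fold change of 2.75 ± 0.84 (edgeR, adjusted p = 0.263) and Egr2 had 2.07 ± 0.86 (edgeR, adjusted p = 0.444), both higher in every dFLEx tumor. Egr3, of the same zinc finger family as Egr2, had -3.12 ± 0.82 (edgeR, adjusted p = 0.202) and Klf2 had -1.22 ± 0.56 (edgeR, adjusted p = 0.524), both lower in every dFLEx tumor. Immediate-early genes were therefore on both sides, as the AP-1 members were.

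Among 19 other bZIP genes, 1 had an unadjusted p under 0.05 (against 10.6% of all tested genes), and the median was -0.05. Bach2, a repressor that pairs with small Maf proteins, had the largest value (2.49 ± 1.02, edgeR, adjusted p = 0.44), and Mafk, a small Maf like Maff, followed (1.42 ± 0.69, edgeR, adjusted p = 0.557). For both, all dFLEx tumors lay above both KP tumors. The lowest of those averaging 1 CPM or more were Maf (-1.15 ± 0.79, edgeR, adjusted p = 0.773) and Batf2 (-1.12 ± 0.98, edgeR, adjusted p = 0.849). Of the 15 kinases and factors that act on Fos and Jun, 0 had an unadjusted p under 0.05, against that same 10.6%. Their median was -0.09. Among those averaging 1 CPM or more, the ends were Mapk9, a JNK gene (0.89 ± 0.85), Map2k7 (0.34 ± 0.54), Mrtfa (-0.91 ± 0.72) and Rps6ka3 (-1.06 ± 1.02), with edgeR adjusted p between 0.827 and 0.925.

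Atf3 is also induced by the integrated stress response and by heat. Of 10 genes of the stress response, 1 had an unadjusted p under 0.05 (against 10.6% of all tested genes), and the median was 0.28. Its ends were Chac1 (1.15 ± 0.63, edgeR, adjusted p = 0.637), Ddit4 (0.95 ± 0.77, edgeR, adjusted p = 0.833), Asns (-1.02 ± 0.58, edgeR, adjusted p = 0.664) and Slc7a11, the cystine transporter (-2.36 ± 0.67, edgeR, adjusted p = 0.226). Of 6 heat shock genes, 1 had an unadjusted p under 0.05 (against that same 10.6%), and the median was -0.48. Hspa1a and Hspa1b, near-identical inducible HSP70 genes that lose shared reads, had -1.91 ± 1.01 and -2.11 ± 0.82, against 1.07 ± 0.73 for Hspb1 and -0.08 ± 0.60 for Hspa8 (edgeR, adjusted p between 0.411 and 0.986). Hspa1b was at 37.9 CPM in 3800 and from 2.09 to 9.71 CPM in the other tumors, so 3800 was its highest tumor, as it was for Jun, Fosl1, Fosl2 and Atf3.

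Markers of other cell types were summed and not tested. Skeletal myocyte markers summed to 5883, 23391 and 7024 CPM in the dFLEx tumors and to 997 and 2967 CPM in the KP tumors, with 5 of 5 markers higher in every dFLEx tumor. Summed levels in the dFLEx and KP tumors, respectively, ran from 2537 to 8800 and 1618 to 2427 CPM for fibroblasts, from 152 to 483 and 60 to 122 CPM for endothelial cells, and from 574 to 1055 and 85.7 to 396 CPM for pericytes. Single markers higher in every dFLEx tumor were 2 of 5 for fibroblasts, 1 of 5 for endothelial cells and 1 of 4 for pericytes. These 3 sums therefore rest on few genes. Of all tested genes, 13.7% were higher in every dFLEx tumor. Endothelial and fibroblast sums had the same order over the 5 tumors as Fos and Maff did, 170025 highest and 3802 lowest. Pericyte and myocyte sums had other orders, and the share of all tested genes with the order of Fos was not counted. B cell markers (2.22 to 34.7 CPM), neutrophil markers (6.37 to 49.6 CPM, with Ly6g at 0 in 170025) and keratinocyte markers (6.7 to 43.7 CPM) overlapped between the groups. The part of these cells in the levels of Fos, Maff and the other members was not tested.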

How the data were processed

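RNA-seq counts of 9 libraries (5 tumors) were used. The authors trimmed reads with Trimmomatic (0.39), aligned them with STAR (2.7.10a) to mm39 extended by the construct, and deposited raw counts per gene from featureCounts (Subread 2.0.3), without strand, each mate counted as a read and reads on several genes or places left out. Symbols came from GENCODE (98.7% of features). Where features shared a symbol, the longest kept it.

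Duplicates were summed per tumor. edgeR (4.0.16; filterByExpr, TMM, glmQLFTest) compared dFLEx with KP, with Benjamini-Hochberg adjustment over 24743 genes and a threshold of 0.05. The SE is the log2 fold change over the root of F. FPKM used deposited lengths. Single values were compared by exact permutation over tumors (SciPy 1.17.1). Labels do not say that tumors came from separate animals.

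The members and lists were chosen with earlier results of these data known. Named genes were the members, the 2 largest and 2 smallest changes per list (mean of at least 1 CPM), and the 3 nearest genes to Fos, Jun and Atf3; others are named by their position. An allele of the KP model and a gene of the target list are not reported here. Alternatives included limma (3.58.1) and DESeq2 (1.42.0); removal of GC and length trends (loess, span 0.3), unshared exonic length and the Fos share were added after seeing the data.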

Additional observations from a re-analysis of the deposited data

How the results depend on the processing

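Fos, Fosb and Maff stayed higher and Batf lower in dFLEx under all 18 alternatives. Leaving out single tumors gave log2 fold changes from 1.14 (without 3802) to 3.00 (without 3800) for Fos, 1.31 to 3.03 for Maff with the same tumors left out, 0.13 (without 170025) to 2.30 (without 3800) for Fosb and -0.54 to -0.22 for Batf. Without 3800 the sign turned for Fosl1 (3.14), Fosl2 (0.35), Jun (0.86) and Atf3 (0.41), and without 3802 for Junb (0.56) and Jund (1.48). The ranges were -3.99 to 3.14 for Fosl1, -0.98 to 0.35 for Fosl2, -1.43 to 0.86 for Jun, -1.05 to 0.41 for Atf3, -0.77 to 0.56 for Junb and -0.96 to 1.48 for Jund. Jund was also at 0.00 with limma-voom. The log2 ratio of the summed Fos level ran from -0.28 (without 3802) to 2.19 (without 3800) and was -0.08 on unshared length, and that of the Jun level ran from -0.87 to 0.38 (without 3802). The difference in Fos share ran from 30.2 to 51.1 percentage points.

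Counts of calls are given for the 10 members, genes of the lists (of 19, 15, 17, 20, 6 and 10 genes), and all genes. The number of tested genes differed between settings, so the percent of tested genes called stands in brackets. With libraries as independent samples they were 2, 25 and 3344 (17.1%) in edgeR. In DESeq2 they were 3, 31 and 4828 (11.1%), and Fosl1 was the member called lower. With DESeq2 on tumor sums they were 0, 11 and 1396 (3.15%). They were 0, 7 and 543 (2.78%) with limma-voom, and 0, 7 and 880 (1.98%) without a filter. No member was called, and no listed gene, with a mean of at least 1 CPM (80 of all genes, 0.521%) or a robust dispersion (11, 0.0445%). The same held with GC and length trends removed (149, 0.602%), where Junb was at -1.14 and Jund at -1.24. Leaving out single tumors gave 0 members, 0 to 2 listed genes and 0 to 414 genes, the highest without 3802. Replicate numbers mark duplicates of 1 RNA: the log2 ratio of library 1 to library 2 correlated across genes at -0.05 to 0.16 between tumors, so the numbers do not pair tumors. With the replicate block the counts were 1 (Maff), 19 and 2476 (12.7%). The call of Fos was lost (adjusted p = 0.0771, edgeR), and Jund was at 0.08.

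The median log2 fold change of all tested genes was -0.18 with TMM and -0.47 with library totals, and 3 members were positive under each scaling. With 3 tumors against 2, no permutation p can fall under 0.2, and a miss does not show equal levels. Levels of low genes such as Fosl1 are limited by counting error and by reads shared with antisense genes.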
